A study of Mus musculus with 6 samples.

Results

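Adipocyte marker genes were followed in RNA sequencing of mouse tibialis anterior (TA) muscle, a fast-twitch muscle of the lower leg. The genes were taken by symbol from a fixed list of 10: Adipoq, Cfd, Retn, Lep, Plin1, Cidec, Fabp4, Pparg, Car3 and Scd1. All 10 were found among the 55401 gene identifiers of the count table, and 8 passed the filter on low counts and were tested, while Retn and Lep did not pass it. The 6 libraries came from C57BL/6 mice of the genotype HSA-MCM-Bmal1-/- (iMSBmal1-/-), in which the human skeletal actin promoter drives a tamoxifen-inducible Cre that removes the clock gene Bmal1 from skeletal muscle fibres. Both groups carried this knockout, and all mice were given tamoxifen at 2 mg per day for 5 days at an age of 12 to 16 weeks. Adeno-associated virus (AAV) was delivered into the TA 4 weeks after tamoxifen, and the muscle was taken after a further 4 weeks. The control group received AAV-GFP (n = 3) and the other group AAV-RBM20 (n = 3), a vector in which the CMV promoter drives mouse Rbm20, the splicing factor of titin. The study used male mice and gave the RBM20 vector at a higher dose, so that transgene and dose cannot be told apart, and wild-type muscle was not analysed here. The comparison of vectors asks which transcripts differ when RBM20 is raised in muscle without Bmal1.

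White adipocytes store triglyceride in a single large droplet and secrete hormones that report on the size of that store. In limb muscle they lie between the fibres and on the muscle surface, and they arise from fibro-adipogenic progenitors, the resident mesenchymal cells of muscle. The transcription factor encoded by Pparg, together with C/EBP proteins, switches on most of the other markers when such a progenitor becomes a fat cell. The markers are not equally specific. Adipoq, Cfd, Retn, Lep, Plin1 and Cidec are made almost exclusively by adipocytes in such tissue, whereas Fabp4 is also made by capillary endothelium, Car3 and Scd1 by muscle fibres, and Pparg at a low level by several cell types.

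Library totals ran from 41400132 to 54226618 counts. Replicates are named by the numbers in the sample titles, and the libraries numbered 3 stood apart from the rest in both groups. Mitochondrial transcripts took 12.5% and 11.4% of the counts in the AAV-GFP and AAV-RBM20 libraries numbered 3, against 6.41% to 7.66% in the other 4. Titin (Ttn) took 4.48% and 9.05% in them, against 16.9% to 17.8% elsewhere. As a check of the labels, Rbm20 was measured between 164 and 169.9 CPM (counts scaled to a common library total, with a correction for library composition) in AAV-GFP and between 406 and 545 CPM in AAV-RBM20. Its edgeR adjusted p of 0.121 was the smallest of all genes tested, and Rbm20 passed with the replicate number as a block (edgeR adjusted p = 0.0107), without the filter on low counts (edgeR adjusted p = 0.00202) and with DESeq2 (adjusted p = 1.38e-17). The summed fast fibre markers stood between 44072 and 79838 CPM over the 6 libraries, so transcripts of fast fibres were abundant in each.

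The DNA before the start sites of 4 members is shown first, as a description. RefSeq windows from 250 bases before to 50 bases after the transcription start (build GRCm38.p6) were matched for 7 of the 10 members, and Fabp4, Car3 and Scd1 were without an entry. The 4 printed stretches are the bases before the start of Adipoq (chr16:23146286-23146535, plus strand), Cfd (chr10:79890603-79890852, plus strand), Plin1 (chr7:79732777-79733026, minus strand) and Lep (chr6:29059971-29060220, plus strand), each written from 5′ to 3′ along its gene. Capitals mark letters of a CCAAT box or of a C/EBP-type element (TTGCNNAA).
Adipoq: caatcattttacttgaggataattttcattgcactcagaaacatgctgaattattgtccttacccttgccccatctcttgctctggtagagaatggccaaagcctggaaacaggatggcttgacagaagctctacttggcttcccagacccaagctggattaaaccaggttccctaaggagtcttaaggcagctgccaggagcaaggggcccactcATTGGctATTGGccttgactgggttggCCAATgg
Cfd: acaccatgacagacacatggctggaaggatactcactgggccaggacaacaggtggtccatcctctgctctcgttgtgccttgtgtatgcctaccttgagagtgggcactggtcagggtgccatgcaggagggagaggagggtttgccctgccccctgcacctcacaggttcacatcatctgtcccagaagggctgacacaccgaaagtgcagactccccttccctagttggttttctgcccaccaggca
Plin1: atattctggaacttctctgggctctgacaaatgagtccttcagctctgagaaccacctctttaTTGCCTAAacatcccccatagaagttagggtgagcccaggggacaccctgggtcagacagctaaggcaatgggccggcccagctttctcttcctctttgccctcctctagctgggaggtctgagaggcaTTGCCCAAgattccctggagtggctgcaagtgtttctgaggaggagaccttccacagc
Lep: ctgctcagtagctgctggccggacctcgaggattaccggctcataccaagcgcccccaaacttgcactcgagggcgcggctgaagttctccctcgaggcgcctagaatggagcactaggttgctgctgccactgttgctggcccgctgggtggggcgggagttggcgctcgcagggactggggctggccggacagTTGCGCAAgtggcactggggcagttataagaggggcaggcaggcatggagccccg

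Searches covered both strands of the whole 300-base windows. The Adipoq window held 3 CCAAT boxes (CCAAT or ATTGG), with first bases 34, 27 and 7 bases before the start, and a CCAAT box was present in 37.41% of the 32851 windows of all genes. The C/EBP-type element (TTGCNNAA or TTNNGCAA) was found in 10.8% of all windows. It occurred in the Plin1 window at 187 and 58 bases before the start, and in the Lep window at 55 bases before the start. The Cfd and Retn windows held none of the 5 motifs searched. The others were the nuclear receptor half-site AGGTCA (or TGACCT, in 16.26% of windows), the E-box CACGTG (7.15%) and the TATA box TATAAA (or TTTATA, 13.62%), and no member window held the E-box. In the 3 Pparg windows the half-site lay 28 and 9 bases before the start in the first and second. The second Pparg window also held a TATA box at 29 and a CCAAT box at 83 bases, and the third held C/EBP-type elements at 215 and 16 bases and CCAAT boxes at 144 and 22 bases before the start. In the second of the Cidec windows a C/EBP-type element began 198 bases before the start. These letter matches are a description of the windows and were not compared with any measure of binding.

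The members spanned a wide range of levels. On the scale of CPM per kilobase of the longest protein-coding transcript, Car3 was highest at 609.9 ± 506 (SD over the 6 libraries), followed by Fabp4 at 69.5 ± 8.61 and Scd1 at 6.20 ± 3.68. The ranges of these 3 did not touch on this scale. The lowest Car3 library lay at 157 against a highest Fabp4 library of 80.3, and the lowest Fabp4 library at 59.9 against a highest Scd1 library of 12.5. Below them came Cfd at 3.12 ± 3.16, Pparg at 1.52 ± 0.272, Adipoq at 0.366 ± 0.539, Plin1 at 0.346 ± 0.320, Cidec at 0.266 ± 0.269, Retn at 0.218 ± 0.321 and Lep at 0.0465 ± 0.0575. From Scd1 downwards each gene overlapped its neighbour in this order. Genes further apart could still be separate, the lowest Scd1 library (3.00) lying above the highest Pparg library (1.90) and the lowest Pparg library (1.15) above the highest Plin1 library (0.795). The top 3 were all among the 4 members with known sources outside fat. Per kilobase of merged exons instead, Fabp4 stood at 13.9 and Scd1 at 6.13, and the ranges of Fabp4 and Scd1 met.

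**Figure D1:**
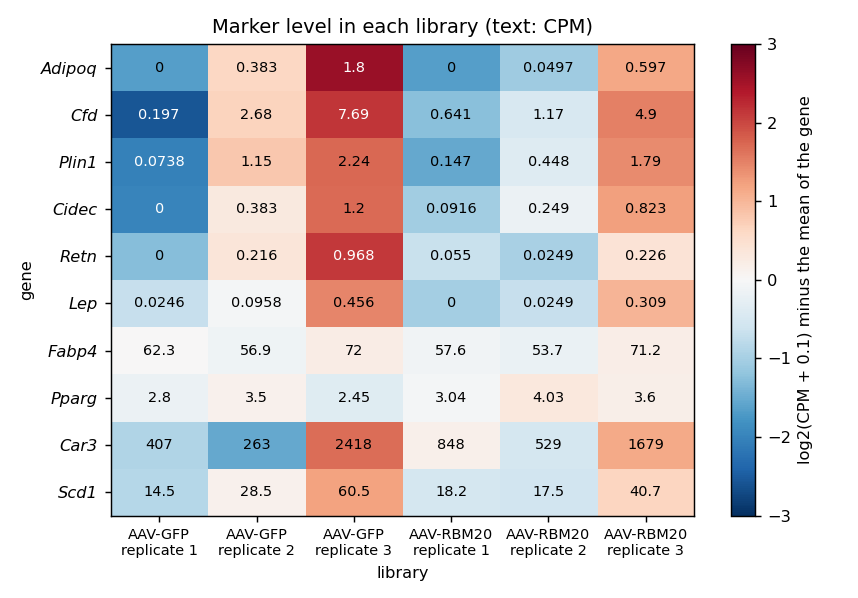
Level of each adipocyte marker gene (rows) in each library (columns). Colour gives log2(CPM + 0.1) minus the mean of the gene over the 6 libraries and the printed value is the CPM. The libraries numbered 3 are the reddest of their group for every gene except Pparg, and the row of Adipoq runs from 0 to 1.80 CPM.

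Among the secreted products, Adipoq encodes adiponectin, the most abundant circulating adipocyte hormone. Adipoq (ENSMUSG00000022878, chromosome 16, 23146536 to 23158028, plus strand) had levels of 0, 0.383 and 1.80 CPM in AAV-GFP replicates 1, 2 and 3, from 0, 16 and 95 counts. In AAV-RBM20 it was measured at 0, 0.0497 and 0.597 CPM, from 0, 2 and 29 counts. Both libraries numbered 1 gave 0 counts, for which the exact Poisson 95% interval reached 0.0907 CPM in AAV-GFP and 0.0676 CPM in AAV-RBM20 (counting error only). Both libraries numbered 3 were the highest of their group. The exact Poisson 95% intervals of the libraries numbered 2 and 3 did not meet within either group, 0.219 to 0.622 against 1.46 to 2.21 CPM in AAV-GFP and 0.00602 to 0.180 against 0.400 to 0.857 CPM in AAV-RBM20. In such whole-muscle RNA, fewer adipocytes and less transcript per adipocyte cannot be told apart.

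Cfd encodes complement factor D (adipsin), a serine protease of the alternative complement pathway that fat cells secrete. Cfd (ENSMUSG00000061780, chromosome 10, 79890853 to 79892655, plus strand) was measured at 0.197, 2.68 and 7.69 CPM in AAV-GFP and at 0.641, 1.17 and 4.90 CPM in AAV-RBM20. It was the most abundant of the secreted members, with 405 and 238 counts in the libraries numbered 3, and the order of the libraries within a group was that of Adipoq. The library numbered 3 stood 5.34-fold over the mean of the others in AAV-GFP and 5.41-fold in AAV-RBM20.

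Retn encodes resistin, an adipocyte hormone of rodents linked to insulin resistance. Retn (ENSMUSG00000012705, chromosome 8, 3655770 to 3660110, plus strand) was measured at 0, 0.216 and 0.968 CPM in AAV-GFP and at 0.0550, 0.0249 and 0.226 CPM in AAV-RBM20. Counts were 0, 9 and 51 in the former and 3, 1 and 11 in the latter, so only the libraries numbered 3 and AAV-GFP replicate 2 rested on more than a few reads. Lep encodes leptin, the hormone that signals fat stores to the hypothalamus. Lep (ENSMUSG00000059201, chromosome 6, 29060220 to 29073877, plus strand) was measured at 0.0246, 0.0958 and 0.456 CPM in AAV-GFP and at 0, 0.0249 and 0.309 CPM in AAV-RBM20, from 1, 4, 24, 0, 1 and 15 counts. Both hormones were again highest in the libraries numbered 3, with group ranges that overlapped.

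Plin1 encodes perilipin 1, which coats the droplet and gates lipase access, and Cidec encodes a protein that fuses droplets into the large one of a white fat cell. Plin1 (ENSMUSG00000030546, chromosome 7, 79720218 to 79732903, minus strand) was measured at 0.0738, 1.15 and 2.24 CPM in AAV-GFP and at 0.147, 0.448 and 1.79 CPM in AAV-RBM20. Cidec (ENSMUSG00000030278, chromosome 6, 113424634 to 113435760, minus strand) was measured at 0, 0.383 and 1.20 CPM in AAV-GFP and at 0.0916, 0.249 and 0.823 CPM in AAV-RBM20. Within each group the libraries fell in the same order for both droplet genes as for Cfd. The library numbered 3 stood 3.66-fold over the mean of the others for Plin1 and 6.24-fold for Cidec in AAV-GFP, and 6.03-fold and 4.84-fold in AAV-RBM20.

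The remaining members did not share one pattern. Fabp4 (ENSMUSG00000062515, chromosome 3, 10204088 to 10208576, minus strand), the fatty acid carrier of adipocytes and capillaries, was measured at 62.3, 56.9 and 72.0 CPM in AAV-GFP and at 57.6, 53.7 and 71.2 CPM in AAV-RBM20. It was nearly flat beside the others, the library numbered 3 standing only 1.21-fold and 1.28-fold over the mean of the other libraries of its group. Pparg (ENSMUSG00000000440, chromosome 6, 115360951 to 115490399, plus strand), the nuclear receptor that drives adipogenesis, was measured at 2.80, 3.50 and 2.45 CPM in AAV-GFP and at 3.04, 4.03 and 3.60 CPM in AAV-RBM20. Pparg was the exception among the members, being highest in the libraries numbered 2 of both groups and lowest of all in AAV-GFP replicate 3. An annotated antisense gene, Gm44079, lies within Pparg without sharing exon bases, and the strand setting of the counting is not given in the sources used here.

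Car3 encodes carbonic anhydrase III, a cytosolic enzyme abundant in adipocytes and in slow muscle fibres. Car3 (ENSMUSG00000027559, chromosome 3, 14863512 to 14872523, plus strand) was measured at 407, 263 and 2418 CPM in AAV-GFP and at 848, 529 and 1679 CPM in AAV-RBM20. The library numbered 3 stood 7.22-fold over the mean of the others in AAV-GFP and 2.44-fold in AAV-RBM20. The summed slow fibre markers stood at 101, 111 and 58.6 CPM in AAV-GFP and at 157, 99.2 and 134 CPM in AAV-RBM20. Replicate 3 was thus the lowest library of its group for these markers in AAV-GFP and the middle one in AAV-RBM20, where replicate 2 was the lowest for both the markers and Car3. Scd1 encodes stearoyl-CoA desaturase, which makes monounsaturated fatty acids for storage. Scd1 (ENSMUSG00000037071, chromosome 19, 44394455 to 44407879, minus strand) was measured at 14.5, 28.5 and 60.5 CPM in AAV-GFP and at 18.2, 17.5 and 40.7 CPM in AAV-RBM20, both libraries numbered 3 being the highest of their group.

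**Figure D2:**
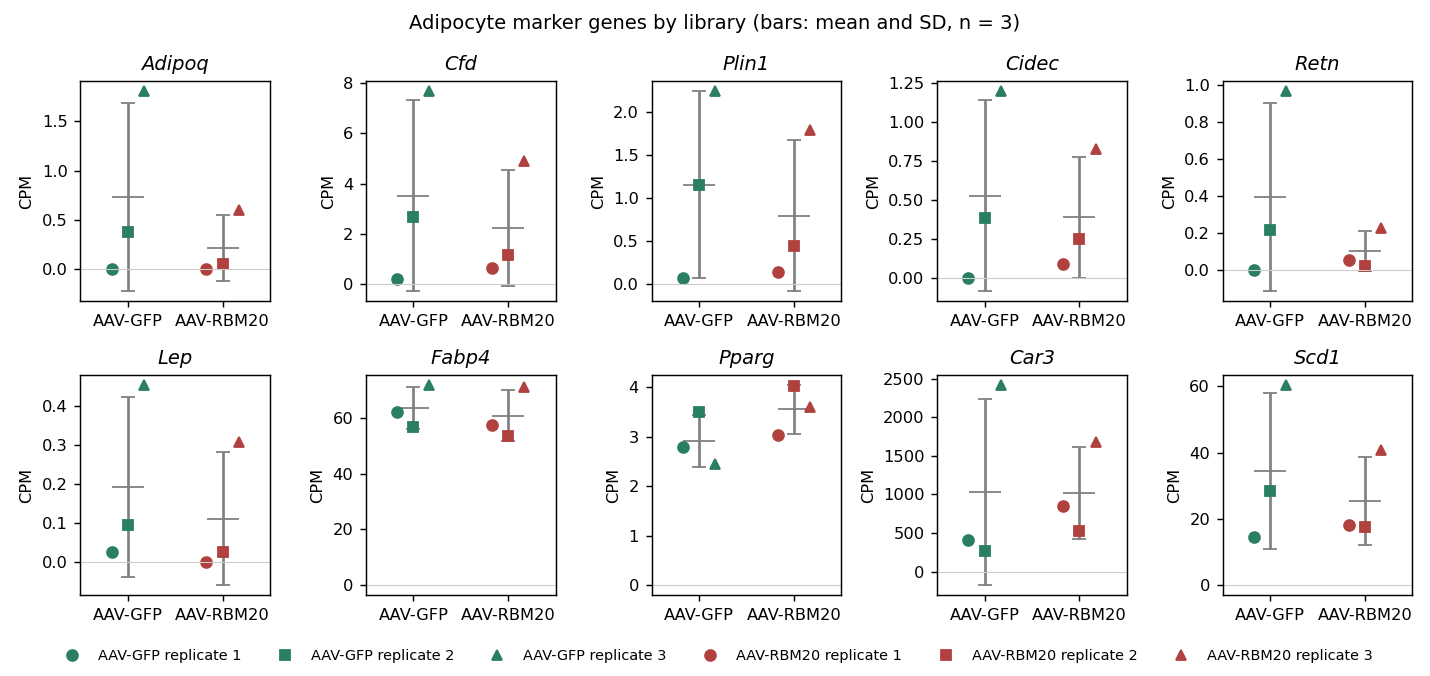
CPM of each adipocyte marker gene (y axis of each panel) in AAV-GFP and AAV-RBM20. Each point is 1 library, with circles, squares and triangles for replicates 1, 2 and 3, and grey bars give the mean and SD of the group (n = 3), which can reach below 0 where the SD exceeds the mean. Triangles sit at the top of each group in every panel except Pparg, and the groups overlap in all 10 panels.

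The spread between libraries was thus the main feature of these genes. A total of 9 of the 10 members, and 7 of the 8 tested, had their highest level in the library numbered 3 of both groups, whereas this held for 28.5% of the 17222 genes tested. The within-group SD of log2 CPM was 2.40 for Adipoq, 2.09 for Cfd, 1.99 for Cidec, 1.97 for Plin1, 1.77 for Retn, 1.53 for Lep and 1.34 for Car3. More than 99% of the tested genes had a smaller one than any of these 7, the share being 99.9% for Adipoq and 99.2% for Car3. The genes compared were not matched for level, and Retn and Lep had not passed the filter on low counts. Counting error, which is larger at low counts, is part of these SDs. Scd1 followed with an SD of 0.87, larger than that of 95.1% of genes. Pparg at 0.23 and Fabp4 at 0.19 lay under the median of all genes, 0.28.

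The sum of squares of log2 CPM over the 6 libraries was divided between the vector group (1 degree of freedom), the replicate number (2) and the remainder (2). The replicate number held 85.8% of it for Adipoq, 88.4% for Cfd, 92.9% for Plin1, 89.8% for Cidec, 91.4% for Lep, 93.7% for Fabp4, 84.0% for Car3 and 85.6% for Scd1. It held less for Retn, 68.0%, and least for Pparg, 47.4%. The vector group held at most 9.16% for any member but Pparg, where it held 37.1%. Over all tested genes the medians were 51.7% for the number and 17.8% for the group.

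**Figure D3:**
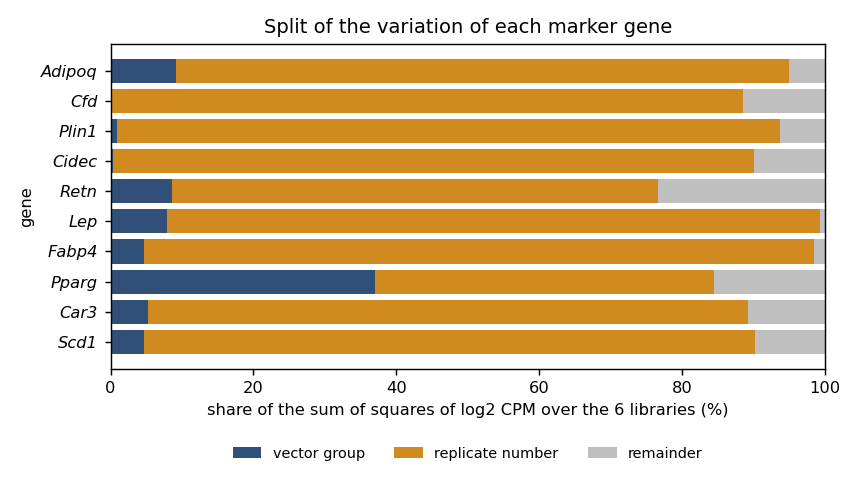
Share of the sum of squares of log2 CPM over the 6 libraries (x axis, percent) that fell to the vector group, the replicate number and the remainder for each adipocyte marker gene (rows). Replicate number takes from 47.4% (Pparg) to 93.7% (Fabp4) of each bar, and the vector group exceeds 10% only for Pparg.

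Within the members, profiles were compared by the root mean square difference of centred log2 CPM over the 6 libraries, where 0 means the same profile. Cfd and Cidec were closest at 0.21, Cfd and Plin1 differed by 0.29 and Plin1 and Cidec by 0.36. Adipoq lay 0.66 from Plin1 and 0.67 from Cfd, while it lay 2.11 from Pparg and 1.69 from Car3. Fabp4 and Pparg differed by 0.35, both being nearly flat. All points share the same libraries and depth, so these values are a description.

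The comparison of vectors gave no adipocyte marker gene past the threshold. By edgeR's quasi-likelihood test, with adjustment over all 17222 genes tested, 0 of the 8 tested members had an adjusted p under 0.05, as did 0% of all genes. At an unadjusted p under 0.05 there were also 0 members, against 7.9% of all genes, and DESeq2 called 0 members and 75 genes in all. In AAV-RBM20, 1 member (Pparg) was higher and 7 lower, where 51.3% of all genes were higher. The median log2 fold change was -0.46 over the tested members and 0.01 over all genes. The ranges of the groups overlapped for all 10 members, whereas they did not overlap for 16.8% of tested genes. The labels do not say whether the samples came from separate animals, so p-values measure only the spread between these samples. In the study's list of blot lanes, some numbers occur under both vectors, marked R for GFP and L for RBM20. Those lanes cannot be matched to these libraries, so whether libraries of both groups share an animal is not known.

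For every tested member except Pparg, the difference between group means was smaller than the larger of both SDs. Adipoq averaged 0.729 CPM in the AAV-GFP libraries (SD 0.950, n = 3) against 0.215 CPM with AAV-RBM20 (SD 0.331, n = 3), with a log2 fold change of -1.77 ± 1.46 (SE, edgeR adjusted p = 0.732). Cfd stood at 3.52 ± 3.82 against 2.24 ± 2.32 CPM, with a log2 fold change of -0.66 ± 1.07. Plin1 stood at 1.15 ± 1.08 against 0.795 ± 0.875 CPM and Cidec at 0.526 ± 0.611 against 0.388 ± 0.385 CPM, with log2 fold changes of -0.55 ± 1.05 and -0.47 ± 1.14. For Cfd, Plin1 and Cidec the standard error exceeded the difference. Scd1 stood at 34.5 ± 23.6 against 25.5 ± 13.2 CPM (log2 fold change -0.44 ± 0.52) and Car3 at 1029 ± 1205 against 1019 ± 594 CPM (-0.01 ± 0.80). Fabp4 was measured with the smallest error of the members, 63.7 ± 7.64 against 60.8 ± 9.18 CPM, and its log2 fold change was -0.07 ± 0.16. Pparg stood at 2.92 ± 0.532 against 3.56 ± 0.495 CPM, with a log2 fold change of 0.29 ± 0.22 and an edgeR adjusted p of 0.710, the smallest of the 8. The largest edgeR adjusted p was 0.996, for Car3.

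Retn and Lep entered only a fit without the filter on low counts. Retn averaged 0.395 ± 0.508 CPM with AAV-GFP and 0.102 ± 0.109 CPM with AAV-RBM20, with a log2 fold change of -1.96 and an edgeR adjusted p of 0.761 in that fit. Lep stood at 0.192 ± 0.231 and 0.111 ± 0.171 CPM, with a log2 fold change of -0.83 and an edgeR adjusted p of 0.861. Two-sided exact permutation tests of log2 CPM, run for each of the 10 members without adjustment, gave p values from 0.2 (Pparg) to 1 (Cfd and Cidec), where 3 against 3 libraries cannot go below 0.1.

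When libraries of the same number were compared with each other, the members still did not pass. With the replicate number as a block, edgeR called 0.145% of all genes and 0 of the 8 members. The block narrowed the error of all 8 tested members. Adipoq had a log2 fold change of -1.92 ± 0.55 (edgeR adjusted p = 0.165) and Car3 one of 0.52 ± 0.34 (edgeR adjusted p = 0.446). Adipoq was lower in AAV-RBM20 in both pairs with any count and had 0 counts in both libraries of the pair numbered 1. Pparg was higher in 3 of 3 pairs, by 1.09-fold, 1.15-fold and 1.47-fold, and Fabp4 was lower in 3 of 3 pairs, at 0.926, 0.944 and 0.989 of the AAV-GFP level. Car3 was 2.09-fold and 2.01-fold higher in the pairs numbered 1 and 2 and stood at 0.694 of the AAV-GFP level in the pair numbered 3.

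Leaving out the library numbered 3 of a single group moved most members, but that of the other group then stayed in. Without AAV-GFP replicate 3, all 8 tested members were higher in AAV-RBM20, with log2 fold changes from 0.03 for Fabp4 to 1.60 for Car3 and a median of 0.31. Without AAV-RBM20 replicate 3, 7 of 8 were lower and the median was -1.31. With both libraries numbered 3 left out, Adipoq no longer passed the filter. Of the others, 2 (Pparg and Car3) were higher, and the median was -0.24. Their log2 fold changes ran from -1.09 (Plin1) to 1.05 (Car3). With the replicate number as a block, 2 of 8 were higher and the median was -0.26. Pparg kept its positive sign in each of these fits. No member passed an edgeR adjusted p of 0.05 in any of them.

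**Figure D4:**
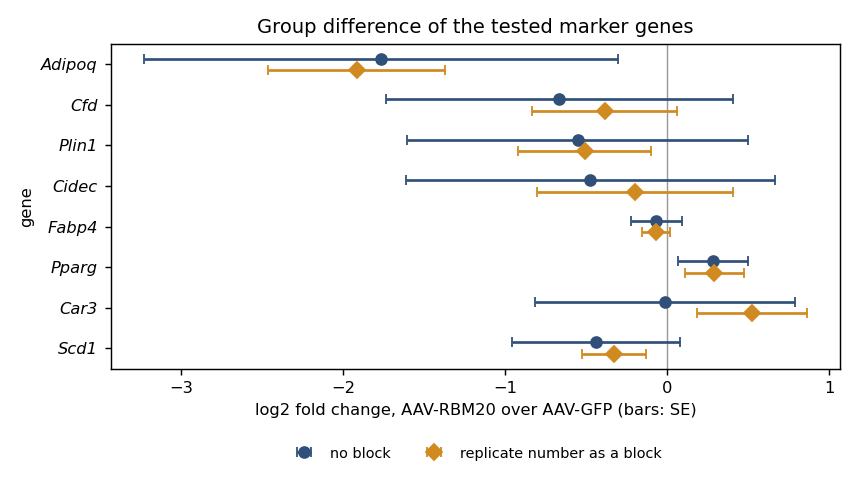
Log2 fold change of AAV-RBM20 over AAV-GFP (x axis) for the 8 tested adipocyte marker genes (rows). Bars are standard errors derived from the edgeR test without a block (blue circles) and with the replicate number as a block (orange diamonds). The widest interval is that of Adipoq without the block and that of Cidec with it, Fabp4 has the narrowest in both fits, and Car3 moves from -0.01 to 0.52 with the block.

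Other genes enriched in adipocytes but outside the marker list were counted in the same fit. Of 15 listed, 12 were tested, 4 of them higher and 8 lower in AAV-RBM20 (median log2 fold change -0.28), and 0 passed. Their highest level was in the library numbered 3 of both groups for 6 of the 12 tested. Ces1d, which encodes a carboxylesterase of fat droplets, was measured at 1.13, 0.934 and 24.1 CPM in AAV-GFP and at 0.605, 0.572 and 8.91 CPM in AAV-RBM20. Ces1d therefore separated the libraries numbered 3 from the rest more sharply than any marker did in AAV-GFP, with 23.4-fold over the mean of the others. Its group difference did not pass (log2 fold change -1.38 ± 1.41, edgeR adjusted p = 0.779). Between libraries of equal number, Ces1d was lower in AAV-RBM20 each time, at 0.534, 0.612 and 0.369 of the AAV-GFP level. The blocked fit narrowed the error of Ces1d, giving a log2 fold change of -1.13 ± 0.19. Ces1d did not pass there either (edgeR adjusted p = 0.0777). Sncg and Adig, both abundant in white adipocytes, had log2 fold changes of -0.36 ± 0.26 and -0.35 ± 0.32, neither past the threshold. Adrb3, the adrenergic receptor of fat cells, was at 0 in both libraries numbered 1 and at most 0.0249 CPM elsewhere.

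Of the brown adipocyte genes, Ucp1 and Elovl3 were at or near 0 while Cidea, Dio2, Otop1 and Zic1 had counts in every library. Otop1 rested on at most 11 counts. Ucp1, the uncoupling protein that defines brown fat, was at 0 in 5 of 6 libraries and at 0.0958 CPM in AAV-GFP replicate 2, and Elovl3 was at 0 in 5 of 6 libraries. The 3 tested of 6 listed, Cidea, Dio2 and Zic1, had positive log2 fold changes of 0.95 ± 0.46, 0.56 ± 0.25 and 0.43 ± 0.49, and 0 passed (smallest edgeR adjusted p = 0.641). Dio2, a deiodinase that activates thyroid hormone, ran from 3.91 to 8.72 CPM over the 6 libraries and Zic1 from 0.639 to 2.20 CPM.

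Genes of lipid handling are used by muscle fibres as well as by fat cells, and they were counted against the same library pattern. Of 11 triglyceride synthesis and droplet genes, 3 were highest in the library numbered 3 of both groups. The same held for 2 of 5 lipolysis genes, 0 of 8 fatty acid synthesis genes and 1 of 6 genes of lipid and glucose uptake. Over all genes tested the share was 28.5%. In edgeR's test of AAV-RBM20 against AAV-GFP, 0 genes of these 4 lists passed the threshold, and at an unadjusted p under 0.05 there were 1 triglyceride gene (Bscl2) and 2 fatty acid synthesis genes (Me1 and Srebf1), all lower. DESeq2 called Me1 alone of the 4 lists. For triglyceride synthesis and droplets 4 were higher and 7 lower, for lipolysis 4 and 1, for fatty acid synthesis 3 and 5, and for uptake 2 and 4. The lowest unadjusted p belonged to Me1, which encodes malic enzyme, a source of NADPH for lipid synthesis. Me1 was measured at 266, 250 and 286 CPM in AAV-GFP and at 163, 176 and 134 CPM in AAV-RBM20, ranges that did not overlap, with a log2 fold change of -0.76 ± 0.15 (edgeR adjusted p = 0.497, DESeq2 adjusted p = 0.000836). Srebf1, the transcription factor of lipogenesis, had a log2 fold change of -0.51 ± 0.15 (edgeR adjusted p = 0.618) and Bscl2 (seipin), needed to form droplets, one of -0.33 ± 0.14 (edgeR adjusted p = 0.618). The hormone-sensitive lipase gene Lipe and the lipoprotein lipase gene Lpl had log2 fold changes of 0.12 ± 0.17 and 0.25 ± 0.18.

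Among 8 adipogenic transcription factors, 3 were higher, 5 lower and 0 past the threshold. Rxra, the partner of PPARgamma, had a log2 fold change of -0.45 ± 0.14 and Ebf1 one of 0.31 ± 0.15, both with group ranges that did not overlap and edgeR adjusted p values of 0.618 and 0.641. The sole factor highest in the library numbered 3 of both groups was Cebpa, which with Pparg maintains the fat cell state. That is 1 of 8, against 28.5% of all genes tested. Zfp423, Ebf1 and Klf15 were instead lowest in the library numbered 3 of both groups. Zfp423 stood at 34.5, 27.6 and 18.2 CPM in AAV-GFP and at 29.3, 23.9 and 17.6 CPM in AAV-RBM20. Cebpa was measured at 1.87, 1.29 and 4.29 CPM in AAV-GFP and at 1.63, 2.44 and 4.03 CPM in AAV-RBM20. For the receptors of adipocyte hormones, 1 of 4 was higher and 3 lower. The adiponectin receptor Adipor1, made by muscle fibres, was measured at 237, 222 and 320 CPM in AAV-GFP and at 193, 199 and 194 CPM in AAV-RBM20. Adipor2 followed at 147, 137 and 166 CPM in AAV-GFP and at 122, 114 and 123 CPM in AAV-RBM20. Neither receptor's ranges overlapped, and the log2 fold changes of -0.41 ± 0.16 and -0.32 ± 0.13 did not pass (edgeR adjusted p = 0.618 for both).

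Markers of macrophages and of adipocyte progenitors were also high in the libraries numbered 3. All 7 macrophage markers were highest in the library numbered 3 of both groups, and their summed level was 23.2, 22.2 and 60.0 CPM in AAV-GFP and 43.2, 37.1 and 66.1 CPM in AAV-RBM20. Fibro-adipogenic progenitor markers summed to 394, 378 and 703 CPM and to 673, 537 and 819 CPM, with 6 of 8 highest in the libraries numbered 3 of both groups. The share over all genes tested was 28.5%. Endothelial markers ran the other way, at 424, 477 and 197 CPM in AAV-GFP and 447, 421 and 306 CPM in AAV-RBM20, while Fabp4 was highest in the libraries numbered 3. The erythroid list summed to 4.25, 9.41 and 11.1 CPM and to 2.71, 4.80 and 28.3 CPM. The part of these cell types, of the mitochondrial share or of the Ttn share in the marker levels was not tested.

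**Figure D5:**
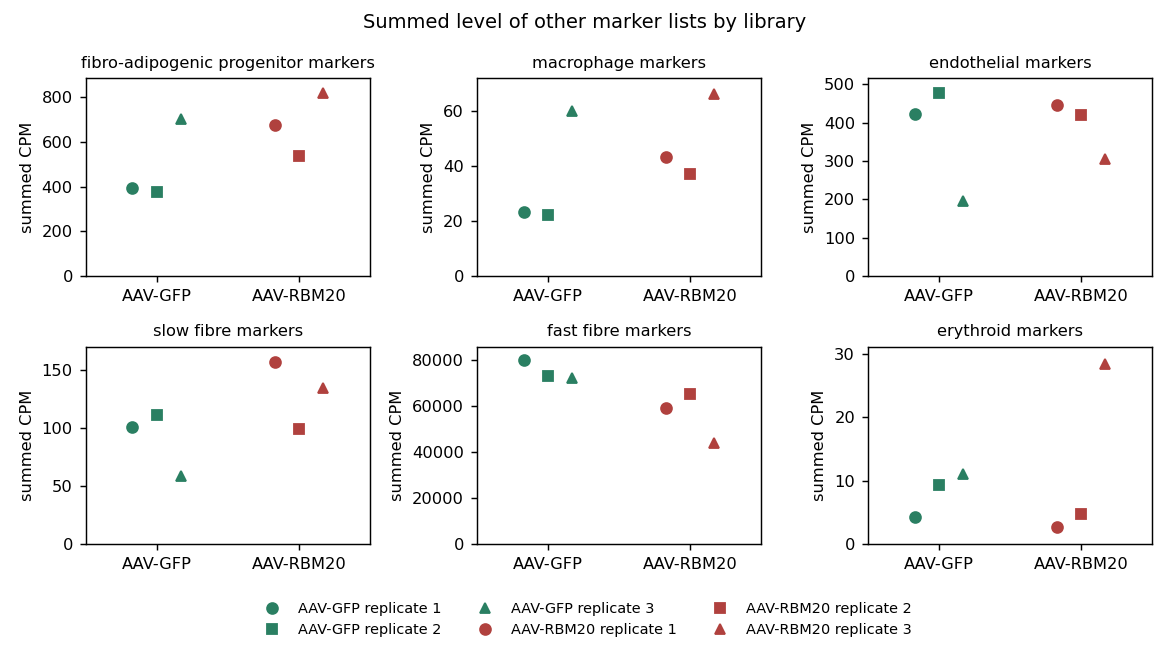
Summed CPM (y axis) of markers of fibro-adipogenic progenitors, macrophages, endothelium, slow fibres, fast fibres and erythroid cells in AAV-GFP and AAV-RBM20. Each point is 1 library, with circles, squares and triangles for replicates 1, 2 and 3. Triangles are highest within their group for the progenitor, macrophage and erythroid lists and lowest for the endothelial and fast fibre lists.

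Between the vectors, 8 of 8 progenitor markers and 6 of 7 macrophage markers had positive log2 fold changes (medians 0.26 and 0.55), and 0 of either list passed. The examples with the lowest unadjusted p were Col1a1, a collagen gene (0.74 ± 0.29, edgeR adjusted p = 0.618), and Itgam, an integrin of myeloid cells (1.68 ± 0.62, edgeR adjusted p = 0.618). Of the slow fibre markers 7 of 8 were higher (median 0.66) and of the fast fibre markers 7 of 9 were lower (median -0.56), again with 0 past the threshold in edgeR, where 2 slow and 4 fast fibre markers had an unadjusted p under 0.05. Tnni1, the slow troponin I gene, had a log2 fold change of 1.69 ± 0.59, and Tnnc2, the fast troponin C gene, one of -0.77 ± 0.18 (edgeR adjusted p = 0.618 and 0.617). DESeq2 called Tnnc2 (adjusted p = 0.00931) and no other gene of the cell type lists. Endothelial markers were higher for 6 of 7, smooth muscle and pericyte markers for 3 of 6, Schwann cell markers for 4 of 6, and tested erythroid and keratinocyte markers for 2 of 3 and 0 of 1. In these 5 lists edgeR gave 0 genes past the threshold and 0 at an unadjusted p under 0.05.

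Genes whose profile over the 6 libraries lay nearest to that of Adipoq were sought among tested genes with a mean of at least 1 CPM, which left out Plin1 and Cidec. The nearest was Cfd at a root mean square difference of 0.67, where a flat profile lies at 2.05. Then came Srp54b (0.96), Fgfr2 (1.07), Mmp9 (1.13), Ces1d (1.13), Slc2a3 (1.14), Mmrn1 (1.17), Tmem132b (1.23), C3 (1.24) and Dkk3 (1.24). C3 encodes complement component C3 and was measured at 18.6, 24.6 and 112 CPM in AAV-GFP and at 16.0, 31.3 and 66.3 CPM in AAV-RBM20. For Car3 the nearest genes were Rac2 (0.34), C1qa (0.36), C1qc (0.37), Fcgr3 (0.40) and Arhgap15 (0.40), against 1.12 for a flat profile. These 5 are known from leukocytes, and C1qa stood at 1.97, 1.63 and 7.71 CPM in AAV-GFP and at 3.99, 3.68 and 8.62 CPM in AAV-RBM20. For Fabp4 they were Phf14, Nsun3, Rbm41, Ankib1 and Uqcrq, at 0.03 to 0.04, where a flat profile lies at 0.16, so many genes with little variation would come close.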

How the data were processed

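RNA of pulverised TA muscle was depleted of ribosomal RNA, made into stranded libraries and sequenced as paired reads. HISAT2 (mapping to mm10) and HTSeq (gene counts) were the tools of the authors, and the deposited counts are raw whole numbers. A second deposited table holds a signal, the same counts divided by 1 DESeq2 size factor per library, and was used only to check that scaling. Tool versions, the annotation release and the strand setting are not given in the sources used here.

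Groups and replicate numbers were taken from the sample titles. Symbols and GRCm38 positions came from GENCODE M21, which held 55141 of the 55401 identifiers. Counts were tested with edgeR 4.0.16 in R 4.3.3 (TMM, filterByExpr with a minimum count of 10 and a minimum total of 15, glmQLFit with robust estimation, glmQLFTest) and adjusted by Benjamini-Hochberg over 17222 genes, with a threshold of 0.05. DESeq2 1.42.0 and limma-voom (limma 3.58.1) were alternatives, beside other scaling, filters, the replicate block and left-out libraries. The edgeR test gives no standard error, so the printed ones are the absolute log2 fold change divided by the square root of its F statistic. CPM used TMM-scaled library sizes, and log2 CPM a prior count of 2. The scripts were tested on simulated data. Intervals and limits for a count of 0 cover counting error only. Replicates of a group differed by a chi-square per degree of freedom of 15.1 or more, so none was counted as a copy.

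To check whether same numbers pair the samples, the deviation of log2 CPM from its group mean was correlated between libraries over all tested genes, which are not independent. It was 0.42, 0.20 and 0.48 for numbers 1, 2 and 3, and between -0.42 and 0.22 for different numbers. The same numbers thus lay above the minimum of 0.1 set for pairing. AAV-GFP replicate 1 with AAV-RBM20 replicate 2 (0.13) did too, and AAV-GFP replicate 2 lay closer to AAV-RBM20 replicate 1 (0.22) than to replicate 2 (0.20). Deviations cancel within a group, so libraries numbered 3 that stand apart in both groups raise the values among numbers 1 and 2 by themselves. The check therefore cannot tell pairing from that. The main fit has no block, and blocked values are given beside it. What a number stands for is not stated, and the sample descriptions use 4 to 6 for AAV-RBM20.

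The marker genes and the 18 lists were chosen with earlier results of these data known. All marker genes were named whatever they showed, and of each other list up to 3 genes with the lowest unadjusted p, or genes needed to show a marker at 0. Cebpa, Zfp423, Klf15, Plin4, Aqp7 and Otop1 were named after their values were seen. The nearest profiles were the 10 for Adipoq and 5 each for Car3 and Fabp4.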

Additional observations from a re-analysis of the deposited data

How the results depend on the processing

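No tested adipocyte marker gene passed the threshold under the 18 alternatives run, nor did another adipocyte-enriched gene under those alternatives except the newer quasi-likelihood method, for which only the marker genes were computed. DESeq2 gave no p-value for Ces1d, so that gene was not tested there. The tested marker genes gave 141 values under 18 alternatives, of which 17 had the opposite sign to the reported one. The number of marker genes higher in AAV-RBM20, 1 as reported, was 2 with upper quartile factors, the stricter CPM filter, the replicate block or both libraries numbered 3 left out, and 3 with limma-voom. Leaving out 1 replicate at a time gave 1 to 8, the latter without AAV-GFP replicate 3. Car3 turned positive with upper quartile factors (0.057), the stricter CPM filter (0.032), the replicate block (0.52), limma-voom (0.53) and both libraries numbered 3 left out (1.05), and Cidec with limma-voom (0.46). In those leave-one-out fits, log2 fold changes ranged from -4.93 to 0.16 for Adipoq, -1.97 to 0.63 for Cfd, -2.0 to 0.37 for Plin1, -1.68 to 0.99 for Cidec, -0.19 to 0.029 for Fabp4, -0.57 to 1.60 for Car3 and -0.94 to 0.24 for Scd1. Each low value came without AAV-RBM20 replicate 3 and each high value without AAV-GFP replicate 3, and that of -4.93 rests on 2 counts in the remaining AAV-RBM20 libraries. Pparg stayed between 0.17 and 0.43. The median over the tested marker genes ranged from -1.31 to 0.31 in the same fits.

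The count of all genes past the threshold, 0 as reported, was 25 with the replicate block, 8 without a filter on low counts, 75 with DESeq2 and 690 with both libraries numbered 3 left out. Why the count rose under these settings was not tested. Adipoq could not be fitted under the stricter CPM filter or without both libraries numbered 3, since it failed the filter there, and Cidec could not under that CPM filter, so its 2 higher are of 6 genes. Depth limits Lep most, which had at most 4 counts in each library not numbered 3.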
